A study of Mus musculus with 6 samples.

Results

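The 10 genes described here encode the Wnt ligands *Wnt2*, *Wnt2b*, *Wnt4*, *Wnt5a*, *Wnt5b*, *Wnt6*, *Wnt9a*, *Wnt9b*, *Wnt11* and *Wnt16*, and were found by matching the Ensembl identifiers of the count table to gene symbols. All 10 had a row among the 28777 genes of the table, and all 10 were among the 28157 tested. The tissue was the cardiac outflow tract (OFT), the vessel that joins the embryonic ventricles to the aorta and pulmonary artery, dissected at E13.5, in mid-gestation. Bulk RNA-Seq was performed on 6 libraries, each made from 3 pooled OFTs. The mutant label (3 libraries) stands for *Notch1*+/-; *Nos3*-/- embryos, which carry 1 disrupted copy of the Notch1 receptor gene and no intact copy of the endothelial nitric oxide synthase gene. The wildtype label (3 libraries) stands for littermates with both genes intact. Both alleles are germline knockouts present in every tissue, kept on a C57/BL6J background. Values are CPM, the usual read count relative to library size, scaled by edgeR's TMM factors, and, where genes are compared with each other, CPM per kb of merged exon length.

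Wnt ligands are secreted glycoproteins that receive a lipid from the acyltransferase Porcn and are carried to the cell surface by Wls. In canonical signaling they bind Frizzled receptors together with Lrp5 or Lrp6 and stabilize β-catenin, which then acts with Tcf/Lef factors in the nucleus. In noncanonical signaling they act through receptors such as Ror2 and Ryk on cell polarity, migration and calcium, without β-catenin. In the OFT, *Wnt5a* and *Wnt11* are known for roles in the septation and alignment of the great arteries, *Wnt2* marks progenitors of the second heart field, and *Wnt9b* is made by the endocardium during remodeling of the valve cushions. Here *Wnt2*, *Wnt2b*, *Wnt6*, *Wnt9a* and *Wnt9b* were taken as mainly canonical and *Wnt5a*, *Wnt5b* and *Wnt11* as mainly noncanonical. *Wnt4* and *Wnt16*, for which both kinds of signaling are known, were kept apart.

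The 250 bases before the annotated start of 3 ligand genes are shown from RefSeq (GRCm38.p6, the build of mm10), each 5′ to 3′ on the strand of its gene. *Wnt9b* and *Wnt16* are shown because the largest log2 fold changes above 0 were theirs, and *Wnt11* because its window held matches to the motifs searched. The windows are chr11:103749822-103750071 on the minus strand for *Wnt9b*, chr6:22287977-22288226 on the plus strand for *Wnt16* and chr7:98834862-98835111 on the plus strand for *Wnt11*. Capitals mark matches, on either strand, to the core of the Notch factor RBPJ (TGGGAA), of the Tcf/Lef factors (CTTTGA) and of the TATA box (TATAAA).
Wnt9b: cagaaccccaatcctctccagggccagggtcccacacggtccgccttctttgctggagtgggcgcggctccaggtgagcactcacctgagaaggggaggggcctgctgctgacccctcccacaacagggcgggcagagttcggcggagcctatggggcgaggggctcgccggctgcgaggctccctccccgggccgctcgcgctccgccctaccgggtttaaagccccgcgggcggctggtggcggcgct
Wnt16: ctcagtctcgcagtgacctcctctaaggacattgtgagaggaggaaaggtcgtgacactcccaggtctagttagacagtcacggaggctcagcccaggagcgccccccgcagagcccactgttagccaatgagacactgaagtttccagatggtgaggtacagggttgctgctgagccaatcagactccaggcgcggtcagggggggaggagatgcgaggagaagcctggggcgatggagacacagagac
Wnt11: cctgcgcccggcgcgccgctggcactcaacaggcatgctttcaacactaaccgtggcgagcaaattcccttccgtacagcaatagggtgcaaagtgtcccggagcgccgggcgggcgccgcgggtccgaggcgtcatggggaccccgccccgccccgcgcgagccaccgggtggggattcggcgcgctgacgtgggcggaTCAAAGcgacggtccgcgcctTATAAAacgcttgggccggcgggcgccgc
In the window of *Wnt11* the TATA box match began 29 bases before the start (position -29) and a Tcf/Lef match on the opposite strand at position -50. The windows of *Wnt9b* and *Wnt16* held none of these 3 cores (0 matches). Of the 10 ligands, 9 had windows in the RefSeq table, 12 in all. The RBPJ core was found in 2 of these 12, at *Wnt5b* and *Wnt9a*, and in 21.6% of 32851 such windows over all genes. The Tcf/Lef core was found in 2 of the 12, at *Wnt5b* and *Wnt11*, against 13.8% over all genes, and the TATA box in 1, against 12.4%. GC content was 72.0% in the window of *Wnt9b*, 59.2% in that of *Wnt16* and 70.8% in that of *Wnt11*, where the median over all genes was 52.4%. The matches describe letters in these windows and not bound sites.

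The libraries held between 34729103 and 44387490 counts. *Notch1* had 74.3 to 88.2 CPM under the wildtype label and 139 to 161 CPM under the mutant label, so it was higher where 1 copy is disrupted. *Nos3* had 31.8 to 48.1 CPM and 20.4 to 22.1 CPM in the same order. *Nos3* was thus lower where no intact copy is present, in the direction of the labels, and *Notch1* was not lower. The groups are therefore called by their labels throughout. By the edgeR test 6 of the 28157 genes passed the threshold (adjusted p 0.05 or less), which is 0.0213%. This count was 2593 without wildtype replicate 1 and between 1 and 3 without any other single library. With all 6 libraries *Notch1* was called (log2 fold change 0.89, edgeR). *Nos3* was not called (log2 fold change −0.98, adjusted p = 0.128, edgeR), although its labels did not overlap. Markers of the cell types of an OFT were detected. They summed over the libraries to between 18089 and 35968 CPM for 10 myocardial and 4626 and 10800 CPM for 9 mesenchymal and cushion genes. The sums were between 1664 and 2254 CPM for 6 smooth muscle and 1056 and 1490 CPM for 9 endothelial genes. Of the smooth muscle genes, *Tagln* had only 2.06 to 3.04 CPM and *Myh11* 1.69 to 5.15 CPM.

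Ligand levels were first compared with each other, per kb of exon, in all 6 libraries. *Wnt5a* was the most abundant, with 9.06 ± 1.97 CPM per kb (SD, n = 6), and it was the highest of the 10 in every library. It was followed by *Wnt11* (6.03 ± 0.764), *Wnt4* (5.57 ± 0.790), *Wnt5b* (3.76 ± 0.573) and *Wnt9b* (3.13 ± 1.07). Lower levels were found for *Wnt9a* (1.94 ± 0.279), *Wnt2b* (1.79 ± 0.258), *Wnt16* (1.76 ± 0.542) and *Wnt2* (1.26 ± 0.301 CPM per kb). *Wnt6*, a ligand of epithelia and surface ectoderm, was far below the others at 0.137 ± 0.105 CPM per kb. Of the 9 pairs of neighbors in this order, 5 kept their order in all 6 libraries: *Wnt5a* over *Wnt11*, *Wnt4* over *Wnt5b*, *Wnt5b* over *Wnt9b*, *Wnt9a* over *Wnt2b* and *Wnt2* over *Wnt6*. Each of these reached the smallest p that a two-sided exact sign-flip permutation test over 6 libraries can give (p = 0.031), and none passed when adjusted over the 9 pairs (0 pairs, adjusted p = 0.0562 for each, permutation test). With 5 pairs at that smallest p, none can pass this adjustment, whatever the size of the difference. The order was also taken from the same 6 libraries, so no conclusion is drawn from these p. *Wnt5a* exceeded *Wnt11* by between 1.25 and 1.94 times, and *Wnt2* exceeded *Wnt6* by between 3.23 and 46.2 times. *Wnt11* and *Wnt4* did not differ beyond their spread (ratio 0.906 to 1.25), nor did *Wnt2b* and *Wnt16* (0.667 to 1.46). With the length of the longest transcript in place of merged exons, *Wnt16* stood sixth and *Wnt9a* eighth, and the other ranks were as given.

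**Figure D1:**
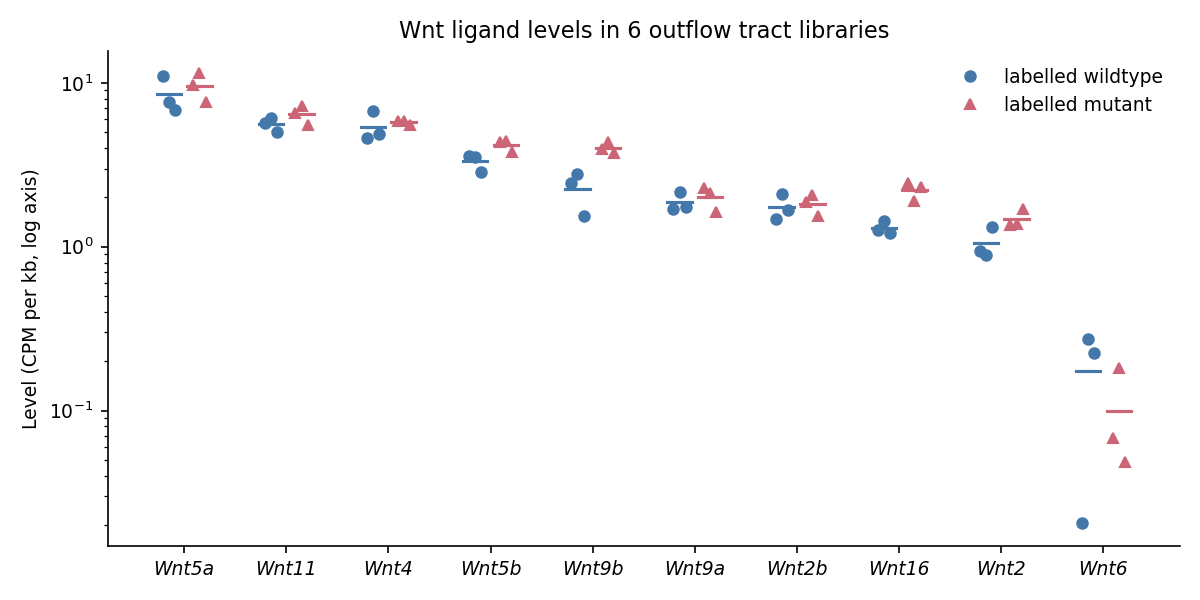
Level of each Wnt ligand in CPM per kb of merged exon length (log axis) for the 3 libraries labelled wildtype (circles) and the 3 labelled mutant (triangles), with a bar at each mean of 3, ordered from the highest mean. *Wnt5a* is at the top with 6.80 to 11.5 CPM per kb, *Wnt6* is at the bottom with 0.0205 to 0.275, and the 2 labels stand clear of each other for *Wnt9b*, *Wnt16*, *Wnt2* and *Wnt5b*.

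Between the labels, none of the 10 ligands was called (0 higher and 0 lower, edgeR's quasi-likelihood test), where 0.0213% of all genes were, 0.0178% higher and 0.00355% lower. The smallest adjusted p were 0.152 for *Wnt16* and 0.181 for *Wnt9b* (edgeR). The same fit did not call the targeted *Nos3* either (adjusted p = 0.128, edgeR), so a ligand that was not called is not shown to be unchanged. At an unadjusted p under 0.05, 4 ligands were higher under the mutant label, namely *Wnt16*, *Wnt9b*, *Wnt5b* and *Wnt2*, and 0 were lower, where 8.23% of all genes were higher and 7.83% lower. The same 4 ligands were those whose 3 mutant-labelled libraries all lay above the 3 others, a pattern seen in 10.7% of all genes, while 8.94% showed the reverse and 19.6% either. For the remaining 6 the labels overlapped. Summed marker levels of 3 cell types were also without overlap. The sums of myocardial and smooth muscle markers were lower under the mutant label. That of neuronal markers was higher (10.4 to 22 against 23.7 to 32.7 CPM over 6 genes). Of these 6, 5 had a log2 fold change above 0 and none was at 0. Only *Tubb3* was without overlap, with 4.56 to 9.67 and 14.6 to 18.5 CPM under the wildtype and mutant labels. *Th* went the other way (log2 fold change −1.57, adjusted p = 0.238, edgeR). Smooth muscle sums were 1851 to 2254 CPM and 1664 to 1844 CPM under the wildtype and mutant labels (3 of 6 genes below 0, none at 0). Most of that sum was *Acta2*. Without overlap, 2 of the 6 genes were lower and 1 was higher. The higher one was *Myh11*, which had the smallest p of the 6 (log2 fold change 1.04, adjusted p = 0.181, edgeR). The part of these 3 cell types in the ligand values was not tested. The 7 blood markers summed to 5289, 11774 and 10089 CPM in wildtype replicates 1 to 3 and to between 6080 and 6221 CPM under the mutant label, so that wildtype replicate 1 stood apart from its label. All 7 had a log2 fold change below 0 (median −0.56), 5 with an unadjusted p under 0.05, none was called (0) and none was at 0, and their part was not tested either. By DESeq2's Wald test 2 ligands were called, *Wnt9b* and *Wnt16*, where 4.21% of the 17781 genes with an adjusted p were called, 2.31% higher and 1.91% lower. These 2 were also called by edgeR without wildtype replicate 1, a fit that called 9.45% of genes (4.15% higher and 5.3% lower), and by no other fit that left out a library. The median log2 fold change of the 10 ligands was 0.18, and 9 of 10 were above 0, against a median of 0.01 and 51.2% of all genes above 0. For *Wnt2b*, *Wnt4* and *Wnt9a*, which count among the 9, the sign turned when GC content and gene length were corrected for, and the median was then 0.08. In bulk libraries, fewer cells of a type and less RNA per cell cannot be told apart, and this holds for every difference given here.

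*Wnt9b* (ENSMUSG00000018486, chromosome 11 of mm10, 103727364 to 103749821, minus strand), the endocardial ligand, showed the largest log2 fold change above 0 of the 10. It had 11.1, 12.6 and 6.93 CPM in wildtype replicates 1, 2 and 3, and 17.7, 19.8 and 16.8 CPM in mutant replicates 1, 2 and 3. The lowest mutant-labelled library was above the highest wildtype-labelled one, and wildtype replicate 3 stood lowest. Means were 18.1 ± 1.57 and 10.2 ± 2.91 CPM (SD, n = 3 each) under the mutant and wildtype labels, a difference of 0.82 on the log2 scale with a standard error of 0.19 (adjusted p = 0.181, edgeR). An exact permutation test of 3 libraries against 3 cannot go below p = 0.1 (two-sided), the value found for *Wnt9b*. Without wildtype replicate 3 the log2 fold change was 0.61 (adjusted p = 0.361, edgeR), and without wildtype replicate 1 it was 0.89 (adjusted p = 0.0371, edgeR). Over all alternative fits its adjusted p lay between 0.00133 and 0.642 (edgeR and DESeq2). The 9 endothelial markers summed to between 1056 and 1490 CPM under the wildtype label and between 1091 and 1268 CPM under the mutant label, with none of the 9 at 0. Of these markers, 8 of 9 had a log2 fold change below 0 (median −0.14). The exception was *Egfl7*, with 48.8 to 69.2 CPM under the wildtype and 74.8 to 84.6 CPM under the mutant label, without overlap (log2 fold change 0.36, adjusted p = 0.243, edgeR). *Egfl7* lies at 26580014 to 26593120 on chromosome 2, near the targeted *Notch1* (26457903 to 26516663), and the part of this position was not tested. Of the other 8, *Npr3* (−0.61, adjusted p = 0.264, edgeR) and *Plvap* (−0.74, adjusted p = 0.296, edgeR) had the smallest p, with overlap. The part of endothelial cells in the *Wnt9b* values was not tested.

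*Wnt9b* and its closest relative *Wnt9a* can be compared within a library, where scaling between libraries plays no part. *Wnt9a* (ENSMUSG00000000126, chromosome 11, 59306928 to 59333552, plus strand) is known from the developing joints and skeleton. Its 3 libraries labelled wildtype had 5.62, 7.18 and 5.79 CPM and its 3 labelled mutant 7.55, 7.12 and 5.44 CPM, so the labels overlapped (log2 fold change 0.11, standard error 0.18, adjusted p = 0.798, edgeR; −0.02 after correction for GC content and length). Per kb, the ratio of *Wnt9b* to *Wnt9a* was 1.45, 1.29 and 0.882 in the wildtype-labelled libraries and 1.73, 2.05 and 2.27 in the mutant-labelled ones, without overlap. *Wnt9b* was thus below *Wnt9a* in wildtype replicate 3 and above it in the other 5 libraries.

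*Wnt16* (ENSMUSG00000029671, chromosome 6, 22288227 to 22298522, plus strand), a ligand known for its role in cortical bone, had the smallest adjusted p of the 10. Its level was 5.53, 6.21 and 5.27 CPM in wildtype replicates 1 to 3 and 10.7, 8.32 and 10.1 CPM in mutant replicates 1 to 3. The labels did not overlap, and the spread was small beside the gap. The means were 9.71 ± 1.23 CPM under the mutant and 5.67 ± 0.488 CPM under the wildtype label (SD, n = 3 each). *Wnt16* was thus 1.71-fold higher by its log2 fold change of 0.77, whose standard error was 0.15 (adjusted p = 0.152, edgeR). With 1 library left out at a time the value lay between 0.70 and 0.87, and it was 0.79 with GC content and length corrected. Without wildtype replicate 1 it was 0.76 and called (adjusted p = 0.0273, edgeR), and the adjusted p over all alternative fits lay between 0.00297 and 0.583 (edgeR and DESeq2). With 40.4% GC in its longest transcript, *Wnt16* was the most AT-rich of the 10, while *Wnt9b* had 56.6% GC and its log2 fold change went from 0.82 to 0.66 with the correction.

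*Wnt2* (ENSMUSG00000010797, chromosome 6, 17988940 to 18030585, minus strand) lies on the same chromosome as *Wnt16*. The wildtype-labelled libraries had 2.14, 2.0 and 2.96 CPM and the mutant-labelled ones 3.07, 3.12 and 3.82 CPM. Wildtype replicate 3 reached almost to the lowest mutant-labelled library, although it was the lowest of all libraries for *Wnt9b* and *Wnt16*. For *Wnt2* the log2 fold change of 0.50 (standard error of 0.22) had an adjusted p = 0.303 (edgeR), and none of the alternative fits called it (0 of 15). The paper, in contrast, names *Wnt2* among its highly differentially expressed genes, which it also measured by quantitative RT-PCR with the results not shown. *Wnt2b* (ENSMUSG00000027840, chromosome 3, 104945272 to 104961921, minus strand), which acts with *Wnt2* in specifying the lung, had 6.23, 8.77 and 7.06 CPM under the wildtype and 7.82, 8.67 and 6.50 CPM under the mutant label. Its labels overlapped (log2 fold change 0.06, standard error 0.17, adjusted p = 0.900, edgeR), and its sign turned on leaving out wildtype replicate 1 (−0.048) or mutant replicate 2 (−0.038) and with the correction for GC content and length (−0.07). The ratio of *Wnt2* to *Wnt2b* per kb was 0.425 to 0.781 under the wildtype label and 0.671 to 1.09 under the mutant label, with overlap. Markers of lung mesenchyme, a tissue next to the OFT in which *Wnt2* is abundant, summed to 20.7 to 31.2 CPM under the wildtype label and 17.8 to 42.3 CPM under the mutant label over 5 genes, 4 of 5 above 0 on the log2 scale. Most of that sum was *Tbx5*, which the heart also expresses, with 16.5, 18.1 and 29.7 CPM under the wildtype and 14.0, 13.6 and 39.9 CPM under the mutant label, highest of each label in the library where *Wnt2* was. Without *Tbx5*, a split made after its values were seen, the other 4 genes summed to 4.63, 2.60 and 1.48 CPM and to 4.05, 4.16 and 2.41 CPM, lowest of each label in those same libraries. None of the 5 genes was at 0, and the part of lung mesenchyme in the *Wnt2* values was not tested.

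*Wnt6* (ENSMUSG00000033227, chromosome 1, 74771892 to 74785322, plus strand) was the only ligand of the 10 with a log2 fold change below 0 before any correction. It had 2, 25 and 16 counts in wildtype replicates 1 to 3 and 6, 15 and 4 counts in mutant replicates 1 to 3. Counts varied within each label as much as between them, and wildtype replicate 1 was under the floor of 3 counts taken here as the limit of detection. The log2 fold change of −0.78 had a standard error of 0.82 (adjusted p = 0.682, edgeR), and it was −1.53 without mutant replicate 2, −1.32 without wildtype replicate 1 and −0.24 without wildtype replicate 2. A difference in *Wnt6* was not detectable with counts this low and a spread this wide between libraries. The epithelial and endoderm markers summed to 26.8 to 41.3 CPM over the libraries, highest in wildtype replicate 2 as *Wnt6* was. Most of that sum was *Krt8* (8.75 to 13.2 CPM) and *Krt18* (17.5 to 26.9 CPM). *Epcam*, *Cdh1*, *Foxa1* and *Sox2* were each under 1 CPM in every library, and of these only *Cdh1* was highest in wildtype replicate 2. Of 6 tested genes, 4 were below 0 on the log2 scale, and *Foxa2* and *Nkx2-1* were at 0 counts in 3 libraries each. The part of these markers in the *Wnt6* values was not tested. Of the 9 further Wnt ligands of the mouse, *Wnt7a*, *Wnt7b* and *Wnt10b* had a row, each under 1 CPM in all 6 libraries and none called (0), and the others were not analysed here.

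**Figure D2:**
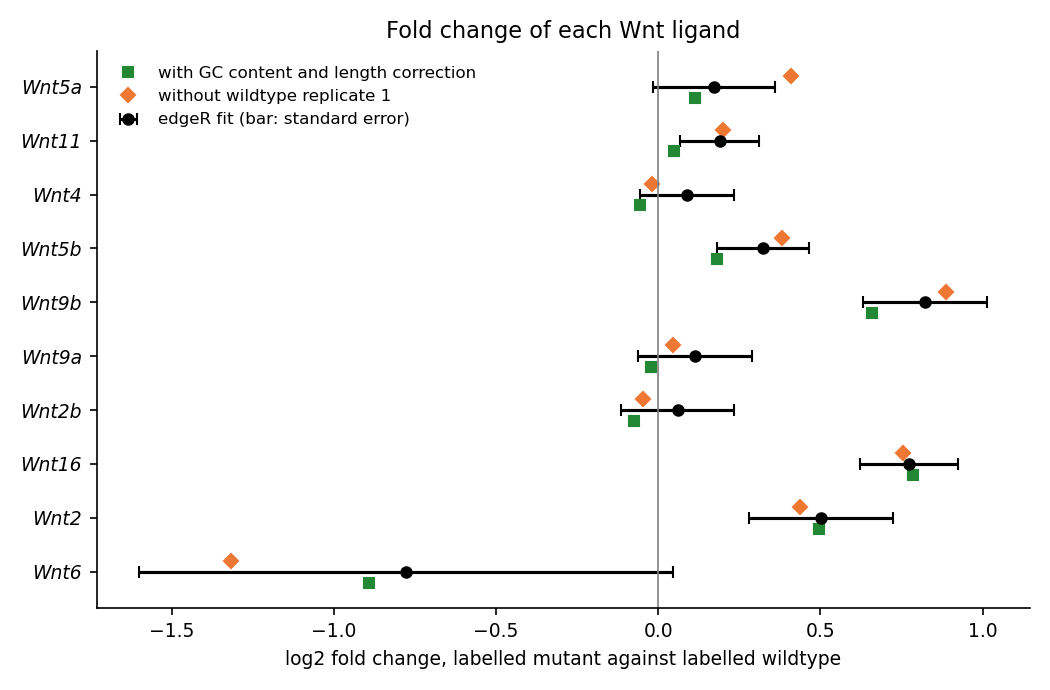
Log2 fold change of each ligand, libraries labelled mutant against those labelled wildtype (x axis), from the edgeR fit of all 6 libraries with its standard error (black), after correction for GC content and length (squares) and without wildtype replicate 1 (diamonds). *Wnt9b* and *Wnt16* lie at 0.82 and 0.77, *Wnt6* at −0.78 with the widest error, and the squares of *Wnt2b*, *Wnt4* and *Wnt9a* lie just below 0.

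Of the noncanonical ligands, *Wnt5a* (ENSMUSG00000021994, chromosome 14, 28504750 to 28527448, plus strand) varied most between libraries of 1 label. It had 86.7, 60.0 and 53.2 CPM in wildtype replicates 1, 2 and 3 and 76.1, 89.6 and 59.5 CPM in mutant replicates 1, 2 and 3. Wildtype replicate 1 was above 2 of the 3 mutant-labelled libraries, and the labels overlapped. The difference was 0.17 on the log2 scale with a standard error of 0.19 (adjusted p = 0.694, edgeR). Leaving out wildtype replicate 1 gave 0.41, and leaving out mutant replicate 2 or wildtype replicate 3 gave 0.02 and 0.03, with *Wnt5a* called in none of these fits. The list of 9 mesenchymal and cushion markers, genes of cells in which *Wnt5a* is made, summed to 8925, 6209 and 4626 CPM under the wildtype label and 9871, 10800 and 8353 CPM under the mutant label. Both *Wnt5a* and this sum were highest in mutant replicate 2 and lowest in wildtype replicate 3, and wildtype replicate 1 was the highest of its label in each. All 9 markers had a log2 fold change above 0, where 51.2% of all genes did. At an unadjusted p under 0.05, 7 of 9 were higher, where 8.23% of all genes were. None of the markers was called (0) and none was at 0, and their part in the *Wnt5a* values was not tested.

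*Wnt5b* (ENSMUSG00000030170, chromosome 6, 119432531 to 119544347, minus strand), the close relative of *Wnt5a*, had 9.56, 9.42 and 7.61 CPM under the wildtype and 11.5, 11.7 and 10.1 CPM under the mutant label. The labels did not overlap, and mutant replicate 3 stood nearest to the wildtype-labelled libraries. A log2 fold change of 0.32 with a standard error of 0.14 resulted (adjusted p = 0.297, edgeR), it was 0.18 with GC content and length corrected, and no alternative fit called it (0 of 15). The ratio of *Wnt5b* to *Wnt5a* per kb was 0.325 to 0.463 and 0.386 to 0.498 under the wildtype and mutant labels, with overlap. *Wnt11* (ENSMUSG00000015957, chromosome 7, 98835112 to 98855195, plus strand), known from the myocardium of the OFT, was the steadiest ligand, with a coefficient of variation of 12.7% over the 6 libraries. Its values were 23.7, 25.4 and 20.9 CPM under the wildtype and 27.0, 29.8 and 23.0 CPM under the mutant label, with overlap. *Wnt11* differed by 0.19 on the log2 scale with a standard error of 0.12 (adjusted p = 0.468, edgeR) and 0.05 after the correction. The 10 myocardial markers summed to 25987 to 35968 CPM under the wildtype label and 18089 to 25524 CPM under the mutant label. All 10 had a log2 fold change below 0. At an unadjusted p under 0.05, 7 of 10 were lower, where 7.83% of all genes were. None of the 10 was called (0) and none was at 0. The part of myocardial cells in the *Wnt11* values was not tested. An antisense RNA and a pseudogene on the other strand share 4.58% of the exon bases of *Wnt5a* and 8.80% of those of *Wnt11*, so a small part of these counts is uncertain, as the strand setting of the counting is not given in the sources used here.

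*Wnt4* (ENSMUSG00000036856, chromosome 4, 137277489 to 137299726, plus strand), known from kidney tubules and the female reproductive tract, had 19.2, 28.4 and 20.3 CPM in wildtype replicates 1 to 3. The mutant-labelled libraries, with 24.5, 24.5 and 23.2 CPM, lay within that range. *Wnt4* differed by 0.09 on the log2 scale with a standard error of 0.14 (adjusted p = 0.810, edgeR), by −0.02 without wildtype replicate 1, 0.29 without wildtype replicate 2 and −0.06 with the correction for GC content and length. No direction can be given for *Wnt4* from these values.

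**Figure D3:**
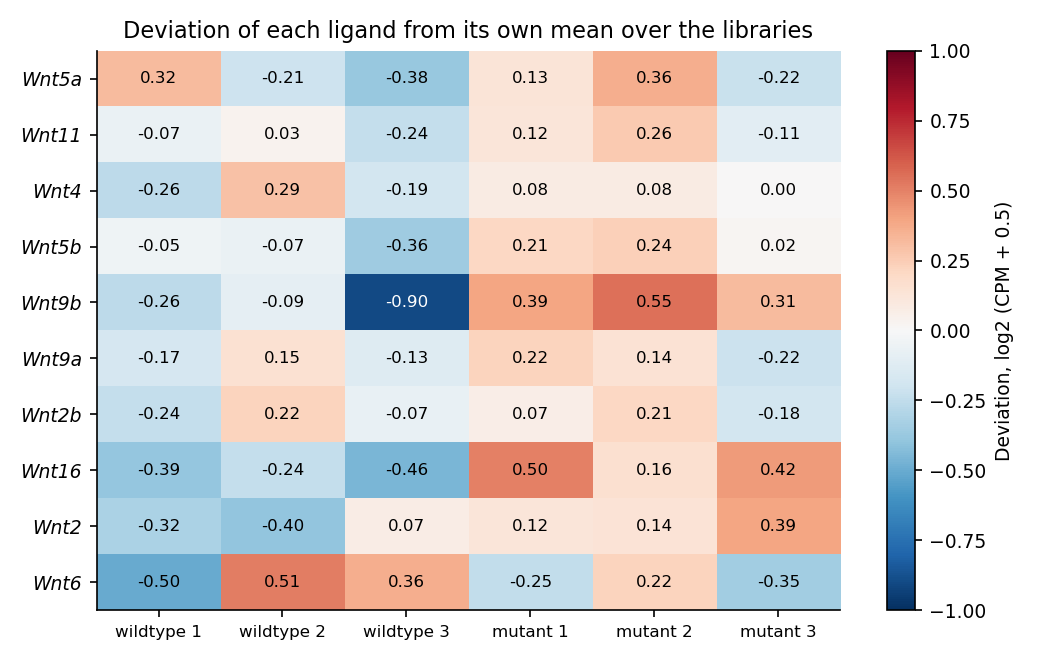
Deviation of each ligand from its own mean over the 6 libraries in log2 of CPM plus 0.5 (colour and number in each cell), with the ligands in the order of their levels and 1 column per library. Mutant replicate 2 is above the mean for 10 of 10 ligands and mutant replicate 1 for 9 of 10, wildtype replicate 1 is above it for 1, and *Wnt9b* in wildtype replicate 3 is the lowest cell at −0.90.

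Library by library, the ligands did not move as 1 block. Mutant replicate 2 held the highest value of 4 ligands, wildtype replicate 2 that of 3, mutant replicate 1 that of 2 and mutant replicate 3 that of 1. The lowest value of 5 ligands was in wildtype replicate 3 and that of 3 in wildtype replicate 1. Wildtype replicate 2 was the highest library of all for *Wnt2b*, *Wnt4* and *Wnt6*, although it carried the wildtype label. Wildtype replicate 1 was the lowest for these ligands. The 8 epicardial markers summed to 253, 412 and 316 CPM under the wildtype and 288, 338 and 275 CPM under the mutant label. Their sum was thus highest and lowest in the same libraries, as was that of the blood markers. The part of either cell type in these ligand values was not tested. The median deviation from the ligands' own means was −0.25, −0.02 and −0.21 (log2) in wildtype replicates 1, 2 and 3 and 0.12, 0.21 and −0.05 in mutant replicates 1, 2 and 3.

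The canonical and noncanonical ligands were then compared over all 6 libraries by their summed CPM per kb, as a description with no test. Noncanonical ligands made up between 50.7% and 62.1% of the sum over the 10 ligands and canonical ligands between 20.1% and 25.8%, so transcripts of the noncanonical class were the larger part in every library. *Wnt5a* alone accounted for 22.7% to 33.7%. The ratio of noncanonical to canonical ligands was 3.09, 2.12 and 2.27 under the wildtype label and 2.17, 2.27 and 1.96 under the mutant label, with overlap. The difference in the log2 ratio, mutant minus wildtype label, was −0.21, and −0.04 without wildtype replicate 1. Summed canonical levels were 6.60, 8.18 and 6.49 CPM per kb under the wildtype and 9.48, 10.2 and 8.63 CPM per kb under the mutant label, without overlap. Without *Wnt9b* the canonical sum was 4.14 to 5.40 and 4.92 to 5.77 CPM per kb, with overlap. Noncanonical sums were 14.7 to 20.4 CPM per kb under the wildtype and 17.0 to 23.1 CPM per kb under the mutant label, with overlap. *Wnt9b* took 5.63% to 8.23% of the ligand sum under the wildtype and 10.2% to 11.1% under the mutant label, and *Wnt16* took 3.86% to 4.43% and 4.66% to 6.93%. The median log2 fold change was 0.11 for the 5 canonical and 0.19 for the 3 noncanonical ligands. With GC content and length corrected these medians were −0.02 and 0.11.

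**Figure D4:**
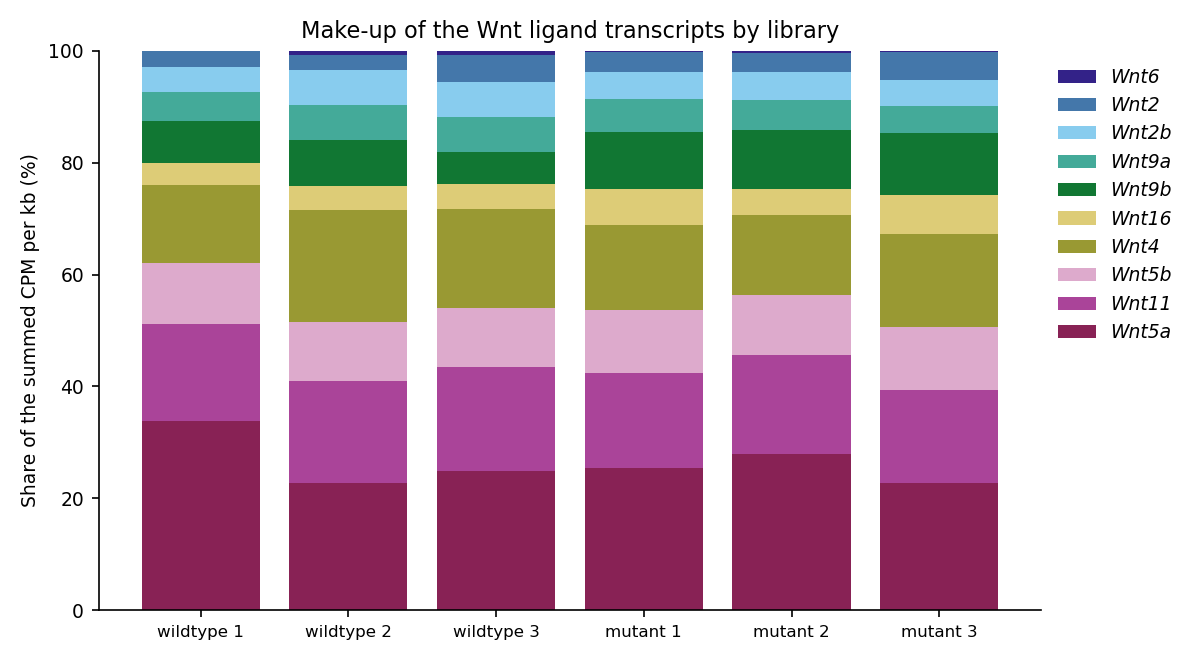
Share of each ligand in the summed CPM per kb of the 10 ligands (%), 1 bar per library, with the noncanonical ligands at the bottom, *Wnt4* and *Wnt16* in the middle and the canonical ligands at the top. *Wnt5a* is the largest segment in each bar, and the segment of *Wnt9b* spans 5.63% to 8.23% in the libraries labelled wildtype and 10.2% to 11.1% in those labelled mutant.

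Genes that make ligands ready for release were examined next. *Wls*, the carrier of lipidated Wnt proteins, had 148 to 165 CPM under the wildtype and 153 to 169 CPM under the mutant label (log2 fold change 0.01, standard error 0.09, adjusted p = 0.959, edgeR). *Porcn*, the acyltransferase, had 3.48 to 5.49 and 4.62 to 7.34 CPM, with overlap (log2 fold change 0.48, standard error 0.22, adjusted p = 0.320, edgeR). Of the 11 genes of ligand lipidation, secretion and extracellular handling, 0 were called. At an unadjusted p under 0.05, 3 were higher and 2 lower, where 8.23% of all genes were higher and 7.83% lower. The smallest p were those of *Notum* and *Trabd2b*, which encode enzymes that inactivate Wnt proteins. *Notum*, which removes the lipid, had 7.59 ± 1.12 CPM under the mutant and 3.32 ± 1.63 CPM under the wildtype label (SD, n = 3 each; log2 fold change 1.19, adjusted p = 0.183, edgeR). *Trabd2b*, which cleaves the amino end of the ligand, had 12.8 ± 1.72 and 7.57 ± 1.90 CPM (SD, n = 3 each; 0.76, adjusted p = 0.184, edgeR). The labels did not overlap for either gene, and 10.7% of all genes were higher under the mutant label without overlap.

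The other genes of the pathway came from 5 further lists written from general knowledge, and with the former list they held 76 genes, of which 74 were tested. None was called (0 higher and 0 lower, edgeR), 22 were higher and 4 lower at an unadjusted p under 0.05 (8.23% and 7.83% of all genes), and their median log2 fold change was 0.18 (0.08 after correction for GC content and length). DESeq2's Wald test called 7 higher and 1 lower (2.31% and 1.91% of all genes), and edgeR without wildtype replicate 1 called 19 higher and 1 lower (4.15% and 5.3% of all genes). Among 12 β-catenin targets, 11 had a log2 fold change above 0, with a median of 0.49, and 6 were higher at an unadjusted p under 0.05, where 8.23% of all genes were. The mesenchymal and cushion markers had the same direction, with 9 of 9 above 0, a median of 0.59 and 7 higher at an unadjusted p under 0.05, and their part in the values of these targets was not tested. *Axin2*, a feedback inhibitor, had 12.5 ± 0.726 and 7.43 ± 1.80 CPM under the mutant and wildtype labels, and *Lef1*, a partner of β-catenin, 17.1 ± 1.43 and 9.30 ± 3.52 CPM (SD, n = 3 each). Their log2 fold changes were 0.74 and 0.87 (adjusted p = 0.181 and 0.184, edgeR). The labels overlapped for neither, and 10.7% of all genes were higher under the mutant label without overlap. *Twist1* stands both on this list and among the mesenchymal markers. Of 16 receptors and coreceptors, 4 were higher and 0 lower at an unadjusted p under 0.05, with the smallest p for *Lrp5* (0.37) and *Fzd10* (0.77). Of 11 secreted antagonists tested, 2 were higher and 2 lower, and the smallest p belonged to *Sfrp1* (−0.31) and *Sfrp5* (−0.75), which bind Wnt ligands outside the cell. The R-spondin axis, which keeps Frizzled receptors at the cell surface, had 2 of 8 genes higher and 0 lower, *Rnf43* (1.23), the ligase that removes Frizzled, and the receptor *Lgr5* (1.49). Both were at low levels. *Rnf43* had 0.801 to 2.09 CPM under the wildtype and 2.68 to 3.57 CPM under the mutant label. *Lgr5* had 0.185 to 0.517 CPM and 0.587 to 1.12 CPM in the same order. Among 16 genes of planar cell polarity and noncanonical effectors, 5 were higher and 0 lower, with the smallest p for the cytoplasmic mediators *Daam2* (0.44) and *Dvl1* (0.41). All values in parentheses are log2 fold changes, and the smallest adjusted p among the 74 genes was 0.181 (edgeR).

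**Figure D5:**
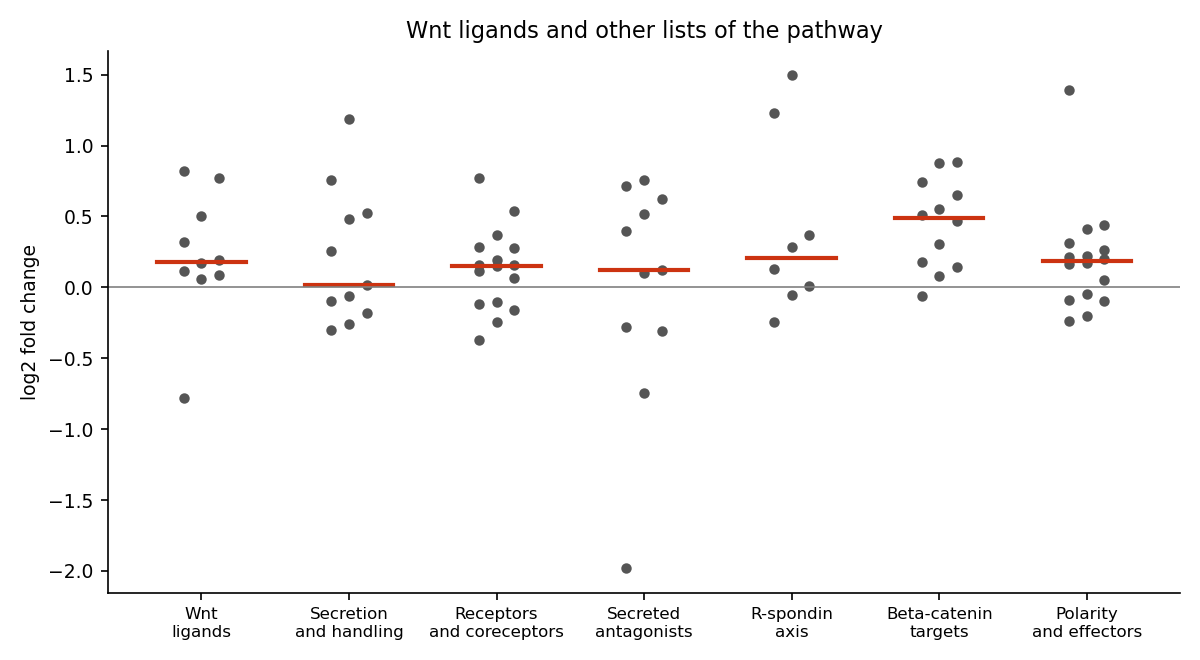
Log2 fold change, libraries labelled mutant against those labelled wildtype (y axis), of each tested gene in the ligands and in 6 lists of the Wnt pathway (1 point per gene, red bar at the median). The median of the β-catenin targets is 0.49, those of the other lists lie between 0.01 and 0.21, and 0 genes of these lists were called.

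The gene with the most similar profile was sought for the 9 ligands with a mean of at least 1 CPM, among 16646 other genes of that level. Similarity was the root mean square difference of log2 CPM plus 0.5, centred over the 6 libraries, and is a description only. For *Wnt9b* it was *Adam1a* (difference 0.0713, where the ligand itself varied by 0.490), and for *Wnt16* it was *Nptx1* (0.0701 against 0.381). *Adam1a* had 1.84 and 3.68 CPM and *Nptx1* 5.92 and 11.2 CPM under the wildtype and mutant labels. The nearest genes of *Wnt2* and *Wnt5a* were *Pkp1* (0.0580) and *Efna5* (0.0557). For *Wnt5b*, *Wnt11*, *Wnt4*, *Wnt9a* and *Wnt2b* they were *Fignl2* (0.0202), *Ercc2* (0.0353), *Pkhd1l1* (0.0338), *Bet1l* (0.0355) and Gm16576 (0.0315).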

How the data were processed

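Bulk RNA-Seq counts of 6 OFT libraries were analysed, 3 labelled mutant and 3 labelled wildtype. Per the labels, TopHat2 2.1.0 and mm10 were used, and the authors counted reads on exons with GenomicAlignments. The deposited values are whole-number counts per gene, not normalized, and the smallest sum of a gene was 5. Replicate numbers follow the titles, and the library numbers of wildtype replicates 2 and 3 are exchanged in the descriptions. That each library is a separate pool of OFTs is stated, but not whether litters differed.

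Genes with 5 or fewer reads in all were left out, and 28157 were fitted with edgeR 4.0.16 in R 4.3.3 (TMM, quasi-likelihood test, Benjamini-Hochberg adjustment, threshold 0.05). DESeq2 1.42.0, other scalings and filters, a replicate block, a spline correction of each library for GC content and gene length, and fits without each library were alternatives. Gene positions and lengths came from GENCODE M21 (GRCm38, which is mm10), which held 28723 of 28777 identifiers. Single genes were compared by exact permutation of log2 of CPM plus 0.5. On simulated counts with 200 changed genes the edgeR fit recovered 196, with 6 false calls. Recovery at the sizes of difference found for the ligands was not tested. The members and gene lists were chosen with earlier results of these data known. Named genes are the 10 ligands, *Porcn*, *Wls*, the 2 targeted genes, from each list the 2 of smallest p, and the nearest profile of each ligand. Equal replicate numbers correlated in their deviations from the label means at 0.0960, 0.159 and 0.420 over 16655 genes, and unequal numbers at −0.441 to 0.277. These values do not settle whether equal numbers are pairs. The main fit did not take them as pairs, and the replicate block was an alternative.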

Additional observations from a re-analysis of the deposited data

How the results depend on the processing

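Direction was kept for 7 of the 10 ligands in all 15 alternative fits. Of 150 ligand values, 133 kept direction and were not called, 8 kept direction and were called, and 9 changed direction. The sign turned with the correction for GC content and length, without and with the replicate block, for *Wnt2b* (−0.074 and −0.068), *Wnt4* (−0.055 and −0.038) and *Wnt9a* (−0.021 and −0.021). With 1 library left out at a time the ranges were −0.048 to 0.21 for *Wnt2b* and −0.019 to 0.29 for *Wnt4*. Of the ligands, 2 (*Wnt9b* and *Wnt16*) were called by DESeq2, by edgeR with the replicate block and with the block and the correction together, 0 with the block of exchanged wildtype numbers, and 0 to 2 with a library left out (2 without wildtype replicate 1), against 0 as reported. Of the 74 other pathway genes, 0 were called as reported, 8 by DESeq2, 15 with the block, 3 with the block of exchanged wildtype numbers, 19 with block and correction, and 0 to 20 with a library left out. Of all genes, 6 were called as reported, 749 by DESeq2, 1577 with the block, 83 with the exchanged block, 2179 with block and correction, and 1 to 2593 with a library left out (2593 without wildtype replicate 1). The cause of these shifts was not tested. The noncanonical median was 0.38 without wildtype replicate 1.

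The replicate numbers were not taken as pairs. Wildtype replicate 1 correlated best with mutant replicate 2 (0.277) and only at 0.0960 with mutant replicate 1. By the numbers of the titles, wildtype replicates 2 and 3 correlated best with the mutant replicate of the same number (0.159 and 0.420). Whether equal numbers are pairs is thus not settled by these values. The adjusted p with the block was 0.00133 for *Wnt9b* and 0.00698 for *Wnt16* (edgeR). With the numbers of wildtype replicates 2 and 3 exchanged, as the descriptions give them, it was 0.0691 and 0.0753, and neither was called.

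With 3 libraries a label, exact permutation cannot pass 0.05. Low and variable counts limit *Wnt6* most, at 2 to 25 counts a library. Fits without each library were added for the count of non-overlapping ligands (4 to 5) and of ordered pairs (5 to 7) after seeing the data.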
